A study of Mus musculus with 12 samples.

Results

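A set of 10 genes of the BMP-Smad pathway was followed through MIN6 cells, a mouse insulinoma line that serves as a model of the pancreatic β-cell. They are the receptors Bmpr1a and Bmpr2, the signal-carrying Smads Smad1 and Smad5, the inhibitory Smads Smad6 and Smad7, and the target genes Id1, Id2, Id3 and Id4. The genes were picked by symbol, as 10 of the 54022 genes in the deposited tables, and all 10 were among the 16222 genes with enough reads to test. The set was proposed because Smad6 was lower in high glucose in these same libraries, so differences of the 10 genes between low and high glucose are given below as a description, with no p-value. Where calls on those contrasts are counted, nothing is read from them.

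RNA sequencing was performed on 12 libraries of wild-type MIN6 cells, 3 in each of 4 conditions: low glucose and vehicle, low glucose and TMAO, high glucose and vehicle, and high glucose and TMAO. TMAO (trimethylamine N-oxide) is a metabolite that gut bacteria and the liver make from dietary choline and carnitine, and it was given at 100 nM for 18 h. The series describes the replicates as biological, but all come from 1 transformed cell line. The study asked how TMAO changes gene expression in these cells under either glucose condition.

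Bone morphogenetic proteins (BMPs) bind a complex of type I receptors such as Bmpr1a and type II receptors such as Bmpr2, and the active complex phosphorylates Smad1, Smad5 and Smad9, which then enter the nucleus with Smad4. Their classic target genes include the Id genes, whose proteins bind E proteins and so keep bHLH transcription factors off DNA, and Smad6 and Smad7, whose proteins act back on the pathway as brakes. In β-cells, Bmpr1a is known to help keep up insulin secretion, and bHLH factors such as Neurod1 drive the insulin gene.

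Totals of reads assigned to genes ran from 16793162 to 22340542 per library, with a median of 18874700, so 3 counts in the smallest library are 1.79e-05% of its reads. All 12 β-cell markers checked had a mean above 1 FPKM. Of 7 markers of other islet endocrine cells, 2 were above 1 FPKM, and the summed level of this list ran from 200.9 to 218.5 FPKM in low glucose and from 224.3 to 229.7 FPKM in high glucose, chiefly through the glucagon gene Gcg; its part in the results below was not tested. None of 5 exocrine and duct markers or 7 markers of stroma, endothelium and leukocytes reached 1 FPKM, and Pnlip, Krt19, Sox9, Pdgfrb, Ptprc and Adgre1 had no reads in any library. In bulk RNA, fewer cells that express a gene and less RNA per cell cannot be told apart.

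The promoters of 2 genes are shown, Smad6 because it had the lowest level in high glucose relative to low glucose, and Id4 because its difference with TMAO was opposite in sign to that of the other Id genes in high glucose. Both come from RefSeq on GRCm38.p6 and hold 250 bases before the annotated start and 10 after it, written 5′ to 3′ on the strand of the gene. The Smad6 stretch lies at chr9:64022050-64022309 on the minus strand, and the Id4 stretch at chr13:48260866-48261125 on the plus strand. Capitals mark GTCTAGAC, the palindromic Smad element, in Smad6, and GGCGCC, a GC-rich element known for Smad1 and Smad5, in Id4.
Smad6: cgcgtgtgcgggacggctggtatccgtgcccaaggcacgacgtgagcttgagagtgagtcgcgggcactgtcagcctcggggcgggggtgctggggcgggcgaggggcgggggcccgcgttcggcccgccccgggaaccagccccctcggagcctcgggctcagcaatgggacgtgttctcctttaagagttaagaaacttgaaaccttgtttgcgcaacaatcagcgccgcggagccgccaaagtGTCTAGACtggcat
Id4: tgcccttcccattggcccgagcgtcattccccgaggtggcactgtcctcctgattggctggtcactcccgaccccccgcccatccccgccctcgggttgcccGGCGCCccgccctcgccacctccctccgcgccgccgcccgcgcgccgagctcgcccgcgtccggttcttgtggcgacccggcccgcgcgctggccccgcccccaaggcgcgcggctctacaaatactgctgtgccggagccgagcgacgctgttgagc

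RefSeq promoter windows were searched for 8 of the 10 genes, in 10 windows of 300 bases, and 4 motifs were searched on both strands. No window of Smad7 or Id1 was searched, so whether either holds any of these motifs is not known here. GTCTAGAC, found in 0.213% of all 32851 promoter windows, occurred once in the Smad6 window, from base -4 to base 4 counted from the start site with no base 0, and in no other window searched of these genes. It contains both matches in that window to the shorter Smad box GTCT, which 88% of all windows hold. GGCGCC, held by 11.9% of all windows, occurred in windows of Id4, Bmpr2, Id2, Smad5 and Bmpr1a. The cAMP response element TGACGTCA, held by 1.79% of all windows, was in none of the windows searched. These matches describe letters and not binding.

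The 10 genes covered a wide range of levels. Per length, Id2 was the most abundant of the 10, from 31.0 to 42.6 FPKM over the 12 libraries, followed by Id3 from 16.7 to 27.9 FPKM, and neither range touched the next. Bmpr1a, with a highest value of 14.1 FPKM, stood in every library above Smad5 (9.87 to 11.4 FPKM) and Smad1 (9.55 to 11.6 FPKM), whose ranges overlapped. Id1 followed from 5.14 to 9.48 FPKM without touching its neighbours. Id4 (2.87 to 4.46 FPKM), Bmpr2 (2.37 to 3.03 FPKM), Smad6 (1.32 to 3.36 FPKM) and Smad7 (1.12 to 1.68 FPKM) were lowest, and each overlapped the next in this order. FPKM, the deposited unit, is a fragment count scaled to gene length and library size.

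**Figure D1:**
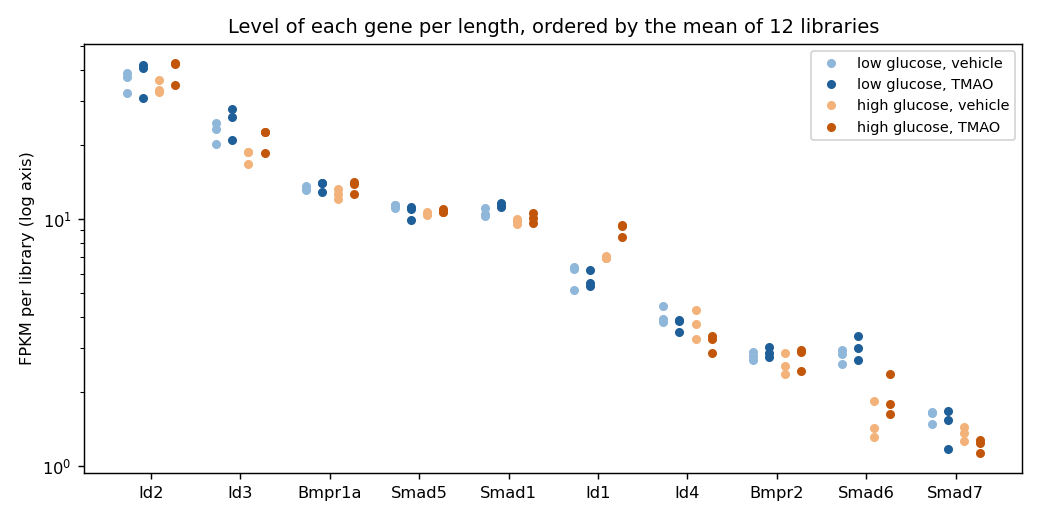
FPKM of each of the 10 genes on a log axis, 1 point per library, with colours for the 4 conditions and genes ordered by the mean of the 12 libraries. Id2 lies between 31.0 and 42.6 FPKM and Smad7 between 1.12 and 1.68 FPKM, and the high glucose points of Smad6 lie below its low glucose points in each treatment.

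The receptors showed small differences between the conditions. Values are given as normalized counts, which are reads scaled to a common library size, in the order of the replicates. Counts of Bmpr1a, the type I receptor, were 1596, 1628 and 1578 in low glucose and vehicle and 1445, 1591 and 1513 in high glucose and vehicle, and those of Bmpr2, the type II receptor, were 945, 917 and 991 against 807, 972 and 863. The high glucose libraries overlapped the low glucose libraries for both genes. With TMAO, Bmpr1a had 1687, 1685 and 1549 counts in low glucose and 1515, 1664 and 1695 in high glucose, again overlapping, and Bmpr2 had 979, 1029 and 941 against 826, 1005 and 981. The log2 difference of high against low glucose was -0.08 ± 0.05 (SE, n = 3 against 3 libraries, as for every difference below) with vehicle and -0.01 ± 0.05 with TMAO for Bmpr1a, and -0.11 ± 0.07 and -0.07 ± 0.07 for Bmpr2. With 1 library left out, the differences with vehicle ranged from -0.12 to -0.04 for Bmpr1a and from -0.19 to -0.05 for Bmpr2. Bmpr1a overlaps the antisense gene Gm17110, which had a mean of 2.83 counts against 1598 for Bmpr1a.

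The signal-carrying Smads also differed little. Normalized counts of Smad1 were 1310.0, 1216 and 1242 in low glucose and vehicle, 1374, 1341 and 1323 in low glucose and TMAO, 1188, 1165 and 1131 in high glucose and vehicle, and 1203, 1250 and 1145 in high glucose and TMAO. Every high glucose library of Smad1 was below every low glucose library of the same treatment, by a log2 difference of -0.11 ± 0.05 with vehicle and -0.17 ± 0.05 with TMAO. Normalized counts of Smad5 were 1556, 1596 and 1599.5 in low glucose and vehicle and 1478, 1495 and 1463 in high glucose and vehicle, with no overlap, but its TMAO groups overlapped across glucose, at 1538, 1569 and 1388 in low glucose and 1506, 1544 and 1500 in high glucose.

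Smad6, the inhibitory Smad that acts mainly on BMP signals, had the largest difference between glucose conditions with vehicle among the 10 genes. It lies on chromosome 9 of mm10, from 63953076 to 64022059 on the minus strand (ENSMUSG00000036867). Its normalized counts were 179, 172 and 157 in low glucose and vehicle and 111, 86.3 and 79.8 in high glucose and vehicle. With TMAO they were 204, 182 and 163 in low glucose and 108, 143 and 98.2 in high glucose. High glucose libraries were all below low glucose libraries in both treatments, with ratios of 0.547 with vehicle and 0.643 with TMAO, log2 differences of -0.87 ± 0.15 and -0.64 ± 0.14. The second high glucose and TMAO library, at 143 counts, stood above the other 5 high glucose libraries, and without it the log2 difference with TMAO was -0.83. Smad7, the inhibitory Smad shared with the TGF-β branch, was at 1.64, 1.65 and 1.48 FPKM in low glucose and vehicle and at 1.36, 1.26 and 1.44 FPKM in high glucose and vehicle, without overlap. Its low glucose and TMAO libraries, at 1.17, 1.54 and 1.68 FPKM, overlapped those of high glucose and TMAO at 1.24, 1.12 and 1.28 FPKM. The log2 difference of Smad7 between glucose conditions was -0.24 ± 0.14 with vehicle and -0.27 ± 0.14 with TMAO, and the latter was -0.41 without the first and -0.17 without the third low glucose and TMAO library.

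The Id genes did not share a direction between glucose conditions. Id1, on chromosome 2 from 152736251 to 152737410 on the plus strand (ENSMUSG00000042745), was higher in high glucose, at 153, 155 and 153 counts against 139.9, 113 and 138 with vehicle, and at 208, 185 and 205 counts against 136, 121 and 117 with TMAO, with no overlap in either treatment. Its ratios were 1.18 with vehicle and 1.59 with TMAO, log2 differences of 0.24 ± 0.12 and 0.67 ± 0.12. The difference with vehicle was 0.14 without the second low glucose and vehicle library. Id3 was lower in high glucose and vehicle, at 635, 635 and 567 counts against 784, 828 and 680.0, without overlap, whereas 766, 764 and 625 counts in high glucose and TMAO overlapped 944, 876 and 709 in low glucose and TMAO. The log2 differences of Id3 were -0.32 ± 0.11 and -0.23 ± 0.11, and the latter was -0.14 without the first and -0.34 without the third low glucose and TMAO library. The mean FPKM ratio of Id1 to Id3 was 0.266 and 0.231 in low glucose with vehicle and TMAO and 0.388 and 0.434 in high glucose.

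The glucose groups of Id2 overlapped in both treatments, and those of Id4 overlapped with vehicle. Id2 counts were 1801, 1731 and 1496 in low glucose and vehicle, 1884, 1933 and 1430 in low glucose and TMAO, 1541, 1682 and 1512 in high glucose and vehicle, and 1970, 1951 and 1611 in high glucose and TMAO. Id4 counts were 278, 324 and 287, then 285, 253 and 282, then 313, 238 and 274, and then 239, 245 and 209 in the same order of conditions. High glucose and TMAO was below low glucose and TMAO for Id4, by a log2 difference of -0.24 ± 0.10, and the difference with vehicle was -0.11 ± 0.10. Leaving out the first or the second high glucose and vehicle library moved the latter to -0.22 or -0.01.

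The glucose contrasts chose the set through Smad6, so the following counts are no test of it and nothing is read from them. At an adjusted p of 0.05 the genes counted were 1 of 10, Smad6, between glucose conditions with vehicle, where 3.3% of all tested genes passed, 1.99% higher and 1.31% lower. With TMAO they were 2 of 10, Smad6 and Id1, where 3.64% of all genes passed, 2% higher and 1.64% lower. Without the first low glucose and TMAO library or the third high glucose and TMAO library, only Id1 of these 10 was counted with TMAO. In those fits 365 of 16516 and 344 of 16505 of all genes passed, and the log2 difference of Smad6 was -0.55 and -0.53. Groups did not overlap for 6 genes with vehicle, 1 higher and 5 lower, against 18.8% of all genes, 9.28% higher and 9.49% lower. With TMAO this held for 4 genes, 1 higher and 3 lower, against 18.4%, 8.98% higher and 9.43% lower. The median log2 difference of the 10 genes was -0.11 with vehicle and -0.12 with TMAO, against 0.0021 and 0.0012 over all genes.

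**Figure D2:**
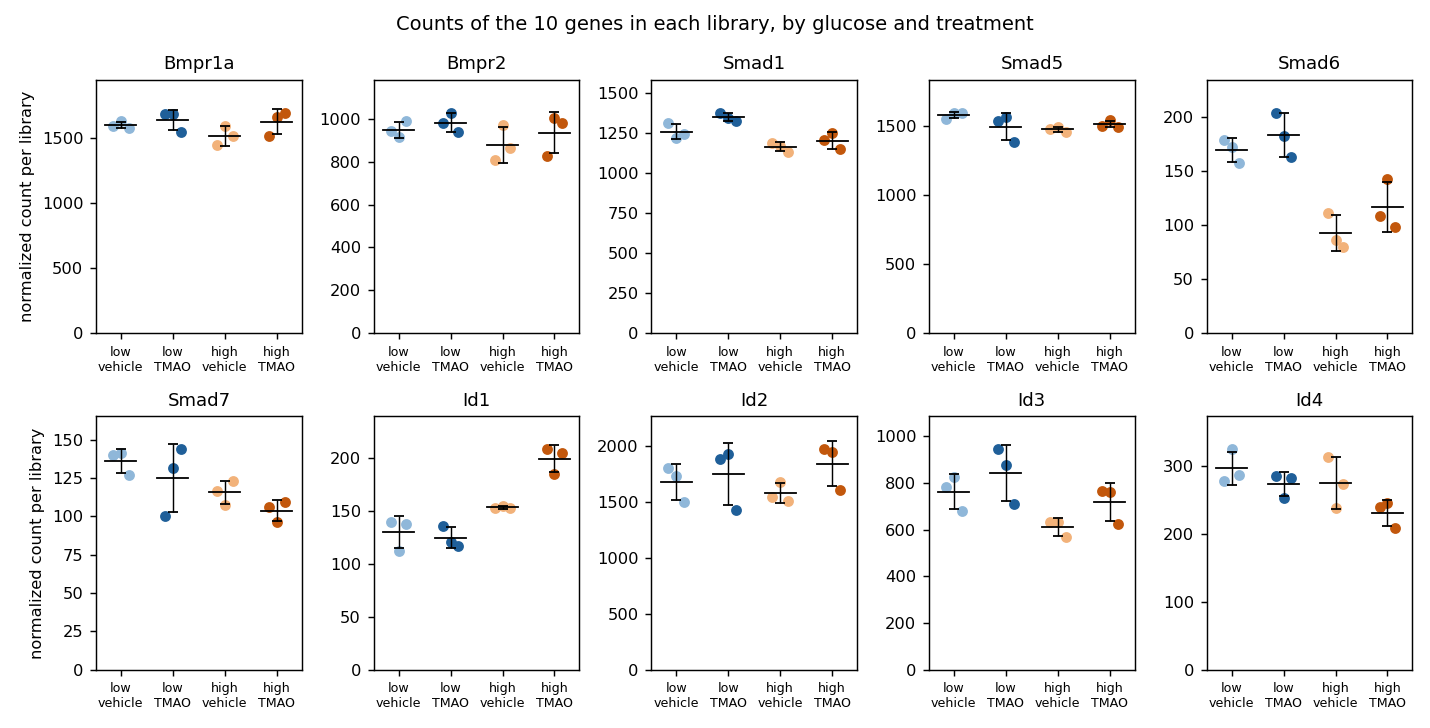
Normalized counts of each gene in the 12 libraries, 1 point per library, with a horizontal line at the mean of 3 libraries and bars of 1 SD, on axes that start at 0. Smad6 lies at 157 to 204 in low glucose and at 79.8 to 143 in high glucose, and Id1 lies highest in high glucose and TMAO at 185 to 208.

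Whether TMAO changed these genes was tested within each glucose condition by edgeR's quasi-likelihood test over all 16222 genes. In low glucose none of the 10 genes passed an adjusted p of 0.05, where 0.00616% of all genes did, none had an unadjusted p under 0.05, where 2.2% of all genes did, and DESeq2 called none. The 10 differences lay between -0.12 and 0.14 on the log2 scale with a median of 0.04 against 0.0011 over all genes, and the widest 95% interval, that of Id2, ran from -0.23 to 0.35. The highest difference, that of Id3, was 0.05 without the first and 0.25 without the third low glucose and TMAO library. Smad1 was the 1 gene whose TMAO libraries were all above its vehicle libraries, which 3.18% of all genes were, while 6.36% did not overlap in either direction, with a log2 difference of 0.10 ± 0.05.

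In high glucose none of the 10 genes passed either, the lowest adjusted p by edgeR being 0.910, where 0% of all genes passed, and DESeq2 called none. By edgeR 3 genes, Smad6 among them, had an unadjusted p under 0.05, as 5.35% of all genes did, and DESeq2 gave 3 as well. Nothing is read from the part of Smad6 in this count, because of how it was chosen. Id1 was 0.37 ± 0.12 higher with TMAO on the log2 scale (95% interval 0.14 to 0.61, unadjusted p = 0.0030 by edgeR), with all 3 TMAO libraries above all 3 vehicle libraries. Smad6 was 0.35 ± 0.15 higher (interval 0.03 to 0.66), given as a description with no p-value. Its groups overlapped, and the difference was 0.16 without the second high glucose and TMAO library. Id4 had a log2 difference of -0.25 ± 0.10 (interval -0.46 to -0.03, unadjusted p = 0.025 by edgeR), but its groups overlapped too, and the difference was -0.14 without the first high glucose and vehicle library. Id2 and Id3 differed by 0.22 ± 0.13 and 0.23 ± 0.11, with intervals that include 0. Over the set, 8 differences were above 0 and 2 below, and the libraries of Smad5 and Id1 were higher with TMAO without overlap, against 5.47% of all genes higher, 5.65% lower and 11.1% in either direction. These libraries share the high glucose and vehicle group with the contrast in which Smad6 was chosen for being low.

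Averaged over both glucose conditions, none of the 10 genes passed and the lowest unadjusted p by edgeR was 0.017, for Id4 at -0.18 ± 0.07. By edgeR 3 genes had an unadjusted p under 0.05 in this average, against 3.62% of all genes, and DESeq2 gave 2 and called none at an adjusted p of 0.05. The 3 by edgeR include Smad6, from whose part nothing is read, since the average holds the high glucose and vehicle group. The interaction, which asks whether the TMAO difference changes with glucose, also called none of the 10 by edgeR or DESeq2, where 0% of all genes were called. The largest was Id1, where the TMAO difference was 0.43 ± 0.17 greater on the log2 scale in high glucose (interval 0.09 to 0.78, unadjusted p = 0.016, adjusted p = 1.00 by edgeR), and the share of all genes with an unadjusted p under 0.05 was 3.36%. The interaction is also the glucose difference with TMAO less that with vehicle, the contrasts in which Smad6 was chosen, so its value for Smad6, 0.23 ± 0.21 (interval -0.19 to 0.65), is given as a description.

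**Figure D3:**
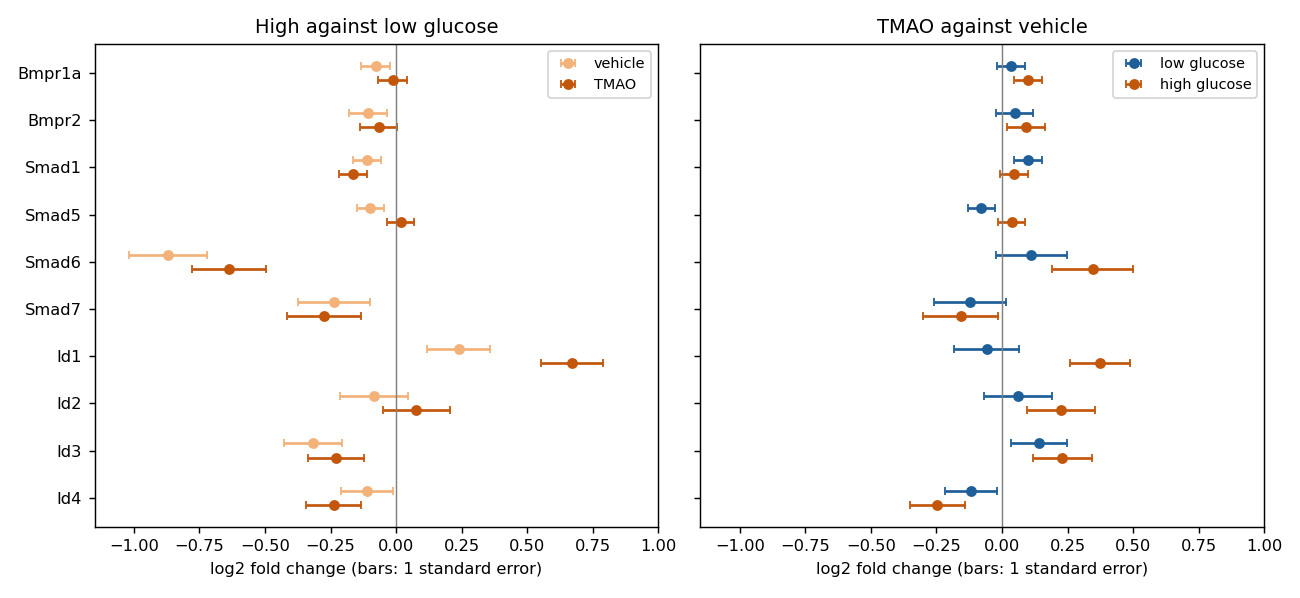
Log2 fold changes of the 10 genes, with bars of 1 standard error, for high against low glucose in each treatment (left) and TMAO against vehicle in each glucose condition (right). Smad6 lies at -0.87 and -0.64 on the left, and on the right every value lies between -0.25 and 0.37.

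Most other genes of the pathway were present, though the BMP ligands themselves were nearly silent. The lists held 84 further genes, of which 50 could be tested. Of 13 BMP ligand genes only Bmp7 could be tested, with at most 15 reads in any library, and Bmp3, Bmp10 and Gdf2 had no reads. The secreted BMP modulator Twsg1 (95.4 to 107 FPKM) and Fkbp1a (85.9 to 98.0 FPKM), whose protein keeps type I receptors inactive, were among the most abundant of the lists, and the type I receptor Acvr1 lay at 4.81 to 5.97 FPKM, while Bmpr1b stayed below 0.0346 FPKM. Of the 3 Smads that the BMP receptors phosphorylate, the third, Smad9, reached 9.45 to 13.5 FPKM, a range that overlaps those of Smad1 and Smad5.

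The lists were drawn up with earlier results of these libraries known. Their calls and adjusted p-values between glucose conditions are therefore a description and do not test whether the pathway responds to glucose. Between glucose conditions with vehicle, 7 of the 50 genes passed by edgeR, 4 higher and 3 lower, or 14% against 3.3% of all genes tested. With TMAO 8 passed, 5 higher and 3 lower, or 16% against 3.64%. By list with vehicle these were 1 of 8 receptors and coreceptors, 1 of 4 other Smads, 2 of 15 intracellular regulators, 2 of 5 other BMP target genes and 1 of 5 bHLH partners, and with TMAO 3 of 15 intracellular regulators with the other lists as with vehicle. None of the ligands or of the 6 extracellular antagonists passed in either treatment. The list medians were -0.0041 with vehicle and -0.02 with TMAO, against 0.0021 and 0.0012 over all genes. No list gene passed for TMAO in low glucose, in high glucose, averaged or in the interaction, with 2, 4, 4 and 2 of the 50 under an unadjusted p of 0.05 by edgeR, where 2.2%, 5.35%, 3.62% and 3.36% of all genes were.

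The genes that rose in high glucose in both treatments were Tgif1, Tob1, Junb and Neurod1, and Skil rose with TMAO. Tgif1, a homeobox corepressor of Smad transcription, rose from 222, 212 and 204 to 544, 608 and 682 normalized counts with vehicle, a log2 difference of 1.52 ± 0.09 with an adjusted p of 2.3e-14 by edgeR, and by 1.28 ± 0.08 with TMAO. Tob1, an antiproliferative protein that binds Smads and dampens BMP signals, rose by 0.61 ± 0.06 with vehicle (adjusted p = 6.2e-09, edgeR) and 0.69 ± 0.06 with TMAO. Skil, a SnoN corepressor, rose by 0.42 ± 0.09 with TMAO (adjusted p = 0.0045, edgeR), and was at 0.28 ± 0.09 with vehicle (adjusted p = 0.12, edgeR). Its call with TMAO was lost without the third low glucose and TMAO library, at 0.32, and on the log2 FPKM scale. Junb, an AP-1 gene that many stimuli induce, rose by 1.20 ± 0.06 and 1.07 ± 0.06, and Neurod1, a bHLH factor of the β-cell, rose from 83.8 ± 1.78 to 125 ± 6.22 FPKM (SD, n = 3) with vehicle.

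The genes that fell were Smad9, Rgmb and Atoh8 in both treatments. Smad9 counts with vehicle were 1290, 1300 and 1243 in low glucose and 962, 1024 and 983 in high glucose, a log2 difference of -0.37 ± 0.06 with an adjusted p of 8.2e-05 by edgeR, and -0.30 ± 0.06 with TMAO. Rgmb, a BMP coreceptor of the repulsive guidance family, differed by -0.37 ± 0.06 with vehicle (adjusted p = 0.00033, edgeR) and -0.31 ± 0.06 with TMAO. Atoh8, a bHLH factor known as a BMP target, differed by -0.42 ± 0.08 with TMAO (adjusted p = 0.0032, edgeR) and -0.32 ± 0.08 with vehicle (adjusted p = 0.032, edgeR). The Atoh8 call with vehicle was lost without the first or second low glucose and vehicle library or without any of the 3 high glucose and vehicle libraries, at -0.33 to -0.25. These gene lists were drawn up with earlier results of these libraries known.

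**Figure D4:**
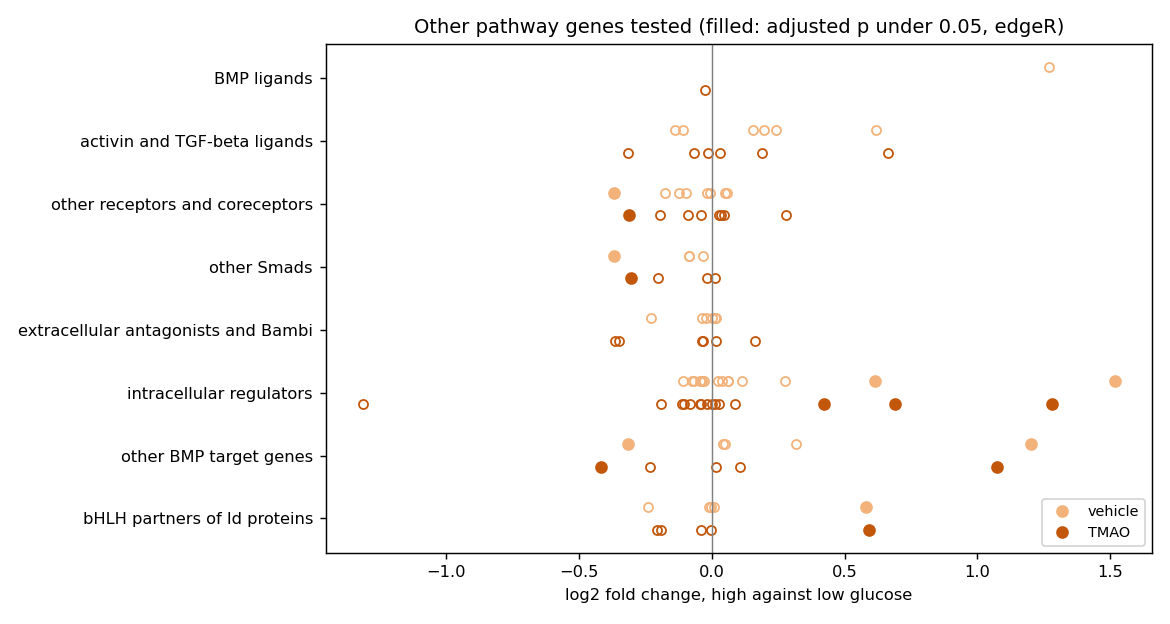
Log2 fold change of high against low glucose for the 50 tested genes of 8 pathway lists, 1 point per gene, with filled points for an adjusted p under 0.05 by edgeR. The filled points at the far right are Tgif1 and Junb, and the BMP ligand row holds only Bmp7, at 15 reads or fewer.

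The genes with a profile most like that of Smad6 over the 12 libraries were named among 12308 genes with a mean of at least 50 counts. Pearson's r of log2 CPM was 0.98 for Mtmr4, 0.96 for Osbpl5, 0.95 for Plekhg6, and 0.94 for both Tigd3 and Gatad2b. Their log2 differences of high against low glucose with vehicle were -0.15 ± 0.05, -0.34 ± 0.09, -0.37 ± 0.05, -0.33 ± 0.10 and -0.22 ± 0.04, all smaller than that of Smad6. Among the other genes of the set, r was 0.91 for Smad1, 0.85 for Id3, from 0.32 (Id2) to 0.45 for Smad5, Smad7, Bmpr1a, Bmpr2, Id2 and Id4, and -0.61 for Id1. The libraries fall into the same glucose groups for every gene, and r is given as a description over 12 libraries.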

How the data were processed

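RNA of MIN6 cells was sequenced by the authors on libraries of poly-A RNA made with the NEBNext Ultra kit. Per the labels' processing notes, HISAT2 2.0.5, featureCounts 1.5.0-p3 and DESeq2 1.16.1 were used with the mm10 genome. The deposited tables hold raw read counts per gene, which sum to 16793162 to 22340542 per library, and FPKM values computed by the authors from those counts. The strand setting of the counting is not given in the sources used here.

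Counts were tested here with edgeR 4.0.16 (R 4.3.3), with TMM scaling, filterByExpr and the quasi-likelihood test, in 1 fit of 12 libraries and 4 groups, with Benjamini-Hochberg adjustment over 16222 genes and a threshold of 0.05. Normalized counts are counts scaled to the mean effective library size. The biological coefficient of variation was 5.34%. DESeq2 1.42.0 and limma 3.58.1 served as alternatives, as did other scalings, filters, FPKM with pseudocounts of 1 and 0.1, a replicate block and leaving out each library. The fit was checked on simulated data. Positions were those of GENCODE M21 on GRCm38.

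The 10 genes and all lists were chosen with earlier results of these data known, and the lists were written by hand. Pathway genes were named as the 6 with the largest absolute change among those passing in each glucose comparison, with a mean of at least 50 counts, and others that passed were named after their values were seen. The 5 genes most like Smad6 were ranked by Pearson's r.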

Additional observations from a re-analysis of the deposited data

How the results depend on the processing

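Most results kept their direction and their side of the threshold under the alternatives, and for TMAO no gene of the set and no list gene passed under any alternative run. The glucose contrasts chose the set, so nothing is read from their counts of its genes. Between glucose conditions with vehicle, 2 genes of the set (Id3 and Smad6) were counted instead of 1 with no filter on low counts (656 of all 30981 genes passed), when the fit held only the libraries compared (597 of 15620) and with the replicate block (717 of 16222), and leaving out 1 library gave 1 to 2, with 2 without the third low glucose and TMAO library (625 of 16548). Over all genes tested, 328 to 625 passed with vehicle when 1 library was left out. With TMAO, 4 genes (Id1, Id3, Smad1 and Smad6) were counted with the replicate block (783 of 16222), and leaving out 1 library gave 1 to 3, where 344 to 657 of all genes tested passed. In low glucose the TMAO difference of Smad7, -0.12, ranged from -0.23 to 0.017 with 1 library left out, above 0 without the first low glucose and TMAO library. That of Id2, 0.06, ranged from -0.018 to 0.19, and was -0.01 without the third low glucose and vehicle library and lowest without the second low glucose and TMAO library. Between glucose conditions with TMAO, 4 small differences also changed sign with 1 library left out, that of Smad5 from 0.02 to -0.04, Bmpr1a from -0.01 to 0.04, Bmpr2 from -0.07 to 0.02 and Id2 from 0.08 to -0.05. The cause was not tested.

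Replicate numbers were not taken to pair the samples, since the labels give them no shared source and only 2 of 18 same-numbered pairs had a correlation of deviations over 0.1 (range -0.04 to 0.21). As a hint from the data, 9 of 12 libraries correlated best with their own number. Without the block, 536 and 591 genes passed between glucose conditions. With the block, 2, 5, 5 and 2 of the 10 genes had an unadjusted p under 0.05 by edgeR for TMAO in low glucose, in high glucose, averaged and in the interaction, where 436, 1104, 781 and 709 of all 16222 genes did, against 0, 3, 3 and 1 without it. These were Id3 (0.025) and Smad1 (0.046) in low, and Id2 (0.00038), Id3 (0.00091), Id1 (0.0024), Id4 (0.027) and Smad6 in high glucose. Nothing is read from Smad6 there or averaged. The set's lowest adjusted p by edgeR was 0.34, for Id3 averaged (unadjusted 0.00019). On the log2 (FPKM + 1) and (FPKM + 0.1) scales, 347 and 337 genes passed with TMAO. Leaving out 1 library gave 328 to 625 genes with vehicle and 344 to 657 with TMAO. Genes at an unadjusted p under 0.05 by edgeR for TMAO in high glucose numbered 868, and 445 of 16529 without the first or 1308 of 16482 without the second high glucose and vehicle library. With 1 library left out, 457 to 1097 genes stood against 588 for the average, 378 to 992 against 545 for the interaction and 345 to 524 against 357 in low glucose. With no filter these were 1402 in high glucose, 1141 averaged, 1088 in the interaction and 705 in low glucose. Alternatives for the named list genes were added after seeing the data. Smad6, Smad7 and Id1, at 79.8 to 208 normalized counts, rest on the fewest reads of the set.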

Other observations

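The third replicate had the lowest normalized count in all 4 conditions for Smad6, Id2 and Id3 of the 10 genes, as for 2.01% of all tested genes, and any one number was lowest throughout in 6.82%. For Id2 the third replicates lay at 1496, 1430, 1512 and 1611 counts, against 1541 to 1970 in the other libraries. This was chosen after the values were seen, and the numbers are not known to mark a shared day or batch.

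The ratio of Id2 to Id3 in FPKM ran from 1.47 to 1.96 over the 12 libraries. Its mean was 1.61 and 1.52 in low glucose with vehicle and TMAO, and 1.90 and 1.89 in high glucose. The ratio of Smad6 to Smad7 ranged more widely, from 0.915 to 2.86.

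Among the list genes, Tgif1 was 0.26 ± 0.09 higher on the log2 scale with TMAO in low glucose, at 246, 267 and 255 counts against 222, 212 and 204 with vehicle, with an unadjusted p of 0.0082 and an adjusted p of 1.00 by edgeR.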
